A study of Mus musculus with 5 samples.

Results

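The genes described here are the kinesin motor genes, taken as those whose symbol is Kif followed by a number. In the deposited table of 3373 probe sets, 17 probe sets had such a symbol as their only gene, and they belonged to 10 genes. A probe set is the group of short array probes whose signals are summarised as 1 value. Mitotic kinesins made up 9 probe sets of 6 genes (Kif2c, Kif4, Kif11, Kif18b, Kif20a and Kif22) and transport kinesins 7 probe sets of 3 genes (Kif1b, Kif3a and Kif5b). Kif2a, which has several roles, had 1 probe set and was kept apart. RefSeq lists 38 protein-coding mouse genes named in this way; the other 28 were not analysed here.

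Kinesins are motor proteins that use ATP to step along, or to take apart, microtubules. Mitotic kinesins build the spindle, move chromosomes and help divide the cell, and their genes are mainly expressed late in the cell cycle. Transport kinesins carry vesicles, mitochondria, lysosomes and other cargo, mostly towards the cell periphery, and are used by dividing and non-dividing cells alike. Mesenchymal stem cells (MSC) of bone marrow divide in culture and secrete matrix and signalling proteins, so they use both kinds of motor.

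The study compared gene expression between MSC exposed to activated T cells across a membrane and naive MSC. One group, n = 3 arrays, was mouse bone marrow MSC in primary culture in Mesencult medium, kept alone. The second, n = 2 arrays, was the same kind of MSC after 48 h in a transwell system with purified T cells that had been activated in vitro through CD3 and CD28 by antibodies, with 10 T cells for each MSC. The labels call the arrays biological repetitions without saying whether animals or cultures were repeated, and they give no strain or age. They give no time in culture for MSC alone, so whether it matched that of co-culture is not known.

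The median log2 value of an array ran from 7.42 to 7.64 over the 5 arrays. Each probe set in the table had groups that did not overlap. The smallest gap between an MSC array and a co-culture array was 0.34 on the log2 scale. The table thus appears to have been selected on the comparison made here, by a rule that no source used here gives. In limma all 3373 probe sets (100%) had an adjusted p below 0.05, with 48.7% higher and 51.3% lower in co-culture. A call for a kinesin is therefore no evidence beyond its presence in the table, and the sizes, directions and probe set patterns are given as descriptions. Within the table the median difference was 1.07 among higher and -1.23 among lower probe sets (log2, co-culture minus MSC alone).

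Of the 14 stromal markers listed, 8 were in the table, among them Col1a1, Col1a2, Col3a1, Pdgfrb and Cxcl12, which were lower in co-culture, and Vcam1 and Pdgfra, which were higher. Of 15 T cell markers 0 were in the table. Of 17 macrophage and monocyte markers 2 were, Mpeg1 and Ctss, both higher in co-culture: their mean log2 value was 3.74 to 4.24 in MSC alone and 7.35 to 8.03 in co-culture. The part of such cells in the kinesin values was not tested. In cultures measured in bulk, fewer cells in division and less kinesin RNA in each dividing cell cannot be told apart.

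Of 13 listed mitotic kinesin symbols 6 were in the table, and of 13 listed transport kinesins 3 were. How the others changed is not known from it. All 9 mitotic kinesin probe sets in the table were lower after co-culture, and 8 of them by at least 2-fold. Downwards, 35.3% of the probe sets in the table reached that size. The 9 mitotic differences ran from -2.49 for Kif11 to -0.89 for Kif22, with a median of -1.38. Transport kinesins showed no common direction. Kif5b rose in all 3 of its probe sets, Kif3a fell in both of its probe sets, and Kif1b rose in one probe set and fell in the other. Of the 7 transport probe sets 4 were higher, 2 of them by at least 2-fold against 27.5% of the table, and 3 were lower, each by at least 2-fold. With each array centred on its median, which raised all differences by 0.16, 7 mitotic probe sets were at least 2-fold lower, and 3 transport probe sets were at least 2-fold higher and 2 lower, while the split of the table turned from 926 higher and 1189 lower to 1167 and 961.

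**Figure D1:**
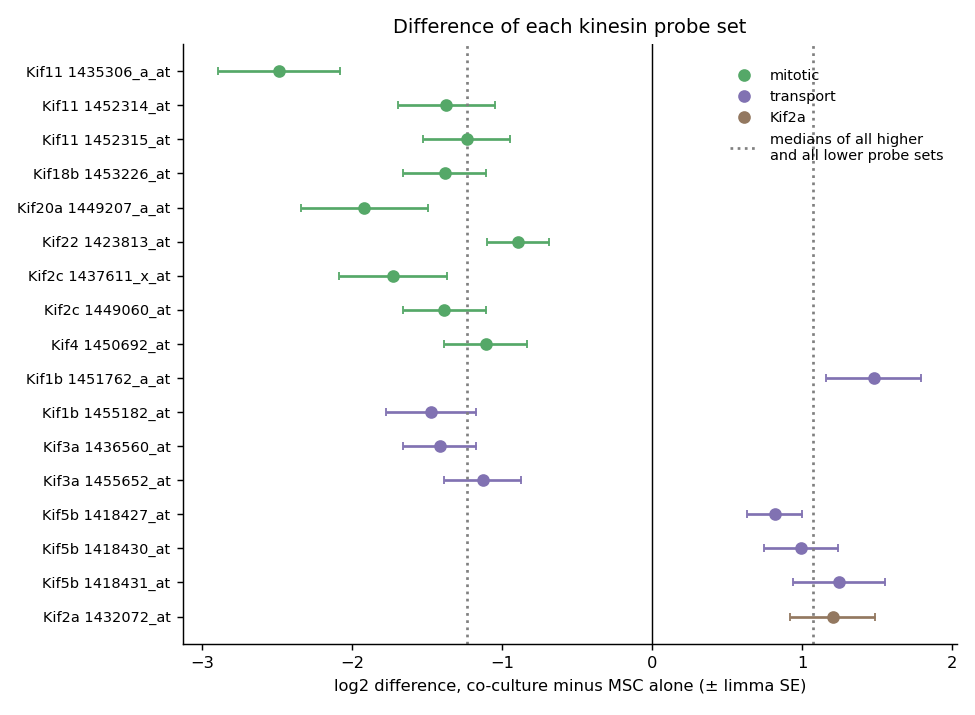
Difference of each of the 17 kinesin probe sets on the x axis (log2, co-culture minus MSC alone; points are the fitted differences and bars limma's moderated standard errors), with probe sets on the y axis coloured by class. All 9 mitotic points lie left of 0, between -2.49 and -0.89, while the 7 transport points lie on both sides; dotted lines mark the table's medians of -1.23 and 1.07.

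Kif11 encodes the motor that slides antiparallel microtubules apart to make the spindle bipolar. Its probe set 1435306_a_at read 6.25, 5.89 and 7.17 on the arrays of MSC alone, in the order of their replicate numbers, and 3.69 and 4.21 on those of co-culture. The lowest MSC array lay 1.68 above the highest co-culture array, the widest gap of the 17 kinesin probe sets. It fell by 2.49 ± 0.41 (SE), or 5.61-fold (adjusted p 0.00409 in limma), and 8.38% of the lower probe sets of the table fell further. The other Kif11 probe sets changed less. Probe set 1452314_at read 6.44, 6.62 and 7.12 in MSC alone and 4.95 and 5.76 in co-culture, and it fell by 1.37 ± 0.32. For 1452315_at the values were 6.13, 6.04 and 6.88 against 5.06 and 5.16, and it fell by 1.24 ± 0.29. The 3 probe sets therefore agreed in direction and differed by up to 1.25 on the log2 scale in size.

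Kif2c encodes MCAK, a kinesin that does not walk but removes tubulin from microtubule ends at kinetochores and so helps to correct wrong attachments. Probe set 1437611_x_at stood at 6.82, 6.84 and 7.89 in MSC alone and at 5.39 and 5.52 in co-culture. It fell by 1.73 ± 0.36 (SE), 3.31-fold. Its suffix marks probes that may also bind other transcripts. The second probe set, 1449060_at, stood at 6.57, 6.49 and 7.19 against 5.17 and 5.56 and fell by 1.39 ± 0.28. Both showed the same ranking of groups, and their sizes differed by 0.34. Kif18b encodes a motor that shortens astral microtubules in mitosis. Its values were 6.77, 6.39 and 7.09 in MSC alone and 5.13 and 5.61 in co-culture, and it fell by 1.38 ± 0.27.

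Kif22 and Kif4 encode chromokinesins, which bind chromosome arms. Kif22 read 6.45, 6.43 and 6.83 in MSC alone and 5.57 and 5.79 in co-culture; it fell by 0.89 ± 0.21 (SE), 1.86-fold, the least of the mitotic probe sets. Kif4, which also acts at the central spindle, read 6.44, 6.45 and 7.11 against 5.36 and 5.74 and fell by 1.11 ± 0.27. Each gene's groups were apart, by 0.64 for Kif22 and 0.695 for Kif4. After quantile normalization of the table both kept their direction, but their adjusted p in limma rose to 0.0716 and 0.0541; over the alternatives it reached down to 0.00775 and 0.0080, and up to 0.117 and 0.13 with 15 times as many tests. RefSeq holds pseudogenes of both, Kif22-ps and Kif4-ps, whose transcripts could share probes, so their values are uncertain. Kif20a encodes a motor of the central spindle that is needed for cytokinesis. It stood at 6.845, 6.55 and 7.75 in MSC alone and 4.72 and 5.54 in co-culture and fell by 1.92 ± 0.42, 3.78-fold.

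**Figure D2:**
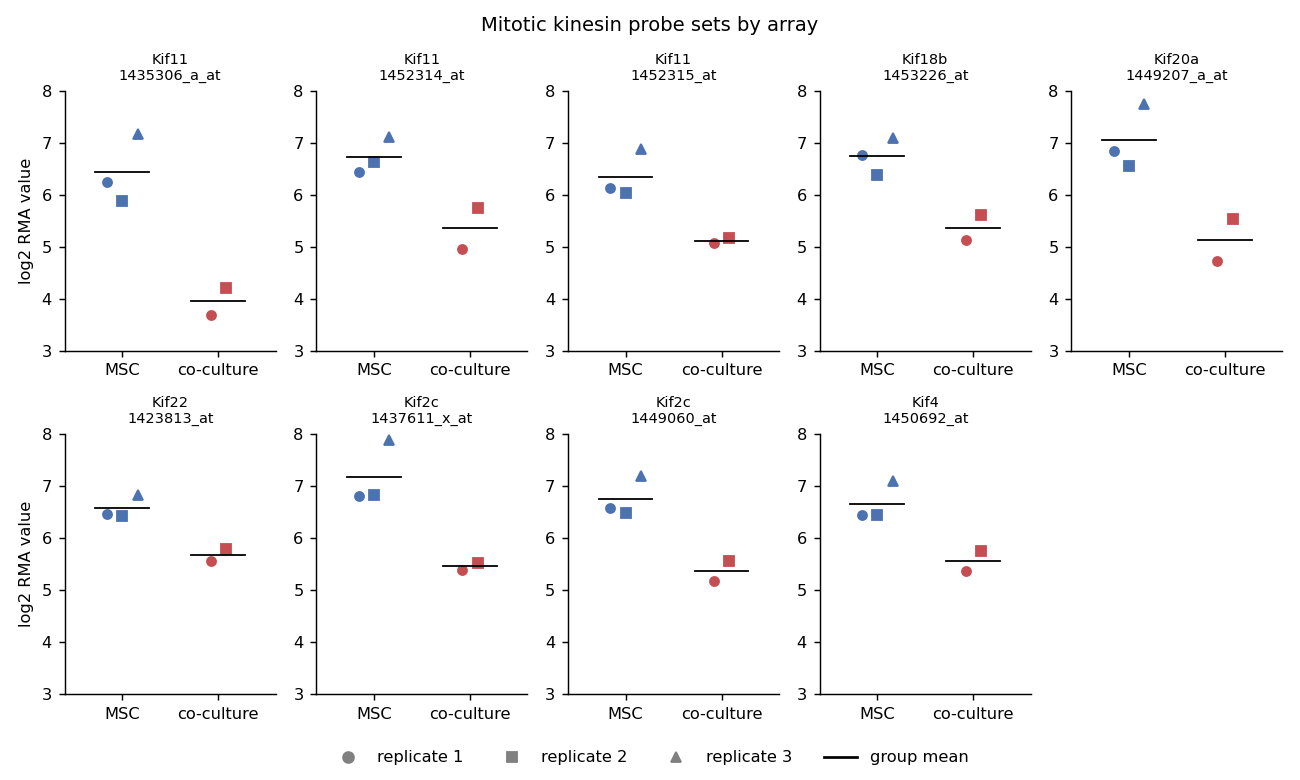
Log2 RMA value (y axis) of each mitotic kinesin probe set in MSC alone (blue, 3 arrays) and co-culture (red, 2 arrays); symbols mark the replicate and lines the group mean. In all 9 panels both co-culture arrays lie below every MSC array, MSC replicate 3 is the highest array and co-culture replicate 1 the lowest.

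The mitotic motors also shared an order of the arrays within each group. Among the MSC arrays, replicate 3 read highest in 9 of 9 mitotic probe sets, against 48.3% of the lower probe sets of the table. Averaged over the 9, MSC replicates 1 and 2 lay at -0.20 and -0.31 and replicate 3 at 0.51 relative to the mean of MSC alone. Co-culture replicate 1 lay at -1.72 and replicate 2 at -1.29. Replicate 1 was the lower of the co-culture arrays in 9 of 9, while this held for 22.5% of all lower probe sets. The probe sets of 1 gene share a transcript and all 9 share the arrays, so these counts are a description.

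The RefSeq promoter table (GRCm38.p6) held 8 of the 10 kinesin genes, without the mitotic Kif20a and the transport gene Kif5b. The 8 had 10 entries of 300 bases each that reach from 250 before to 50 after a gene's start. Many genes of mitosis carry a cell cycle genes homology region (CHR), a short element through which the DREAM and MuvB complexes act, often near a CCAAT box. The letters TTTGAA were searched on both strands, and all 5 mitotic promoters in the table (Kif2c, Kif4, Kif11, Kif18b and Kif22) held them. Of all 32851 promoters 17.9% did. Of the 5 entries of Kif1b, Kif2a and Kif3a 0 held them. CCAAT, also searched on both strands, was found in 4 of the 5 mitotic entries, in 3 of the other 5 and in 37.4% of all promoters. Those 3 were overlapping entries of Kif1b, which share the same boxes, and the entry of Kif3a. The rest of the other 5 were entries of Kif2a, so these 5 are not separate genes. A match is a description of letters and does not show a working site.

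The windows show 120 bases before to 30 bases after the start, 5′ to 3′ along the gene, for the promoters with TTTGAA and for one each of Kif1b and Kif3a. Capitals mark TTTGAA and CCAAT, or the same letters read on the opposite strand (TTCAAA and ATTGG).
Kif11, chr19:37376262-37376411, plus strand: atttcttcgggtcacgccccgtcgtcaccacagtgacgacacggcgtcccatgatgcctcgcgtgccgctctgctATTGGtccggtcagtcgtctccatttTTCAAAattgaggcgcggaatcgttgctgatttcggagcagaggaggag
Kif22, chr7:127042391-127042540, minus strand: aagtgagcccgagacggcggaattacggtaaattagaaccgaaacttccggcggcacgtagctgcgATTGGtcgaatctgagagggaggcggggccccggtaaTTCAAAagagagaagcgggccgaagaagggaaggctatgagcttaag
Kif18b, chr11:102925095-102925244, minus strand: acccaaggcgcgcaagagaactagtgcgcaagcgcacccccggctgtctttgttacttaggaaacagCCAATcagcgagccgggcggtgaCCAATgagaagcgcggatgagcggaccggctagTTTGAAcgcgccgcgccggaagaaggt
Kif4, chrX:100625945-100626094, plus strand: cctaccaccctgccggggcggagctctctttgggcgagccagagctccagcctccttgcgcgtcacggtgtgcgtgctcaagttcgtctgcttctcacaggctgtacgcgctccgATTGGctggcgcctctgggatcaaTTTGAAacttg
Kif2c, chr4:117178743-117178892, minus strand: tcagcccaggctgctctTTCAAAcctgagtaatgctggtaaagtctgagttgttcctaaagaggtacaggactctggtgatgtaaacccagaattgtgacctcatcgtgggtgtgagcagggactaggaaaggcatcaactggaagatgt
Kif1b, chr4:149307704-149307853, minus strand: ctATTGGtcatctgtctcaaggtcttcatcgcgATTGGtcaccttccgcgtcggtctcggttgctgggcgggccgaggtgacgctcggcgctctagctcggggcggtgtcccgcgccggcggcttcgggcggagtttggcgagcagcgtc
Kif3a, chr11:53567249-53567398, plus strand: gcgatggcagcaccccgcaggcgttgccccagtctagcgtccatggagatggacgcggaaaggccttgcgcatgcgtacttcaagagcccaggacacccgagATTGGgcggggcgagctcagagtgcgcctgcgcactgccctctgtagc

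In Kif11 and Kif22 the CHR letters began 19 and 17 bases before the start, each with a CCAAT box further upstream, at 45 and 54 bases. In Kif18b and Kif4 they began at base 4 and base 20 after the start, and the nearest CCAAT box began 30 and 5 bases before it. Kif2c had them 103 bases before the start and no CCAAT, and Kif22 held a second copy 215 bases before the start, outside the window. The Kif1b entry shown had 2 CCAAT boxes, 118 and 87 bases upstream, and Kif3a had 1, 18 bases upstream. Core letters of the elements through which interferon acts were also searched on both strands. The core of the interferon-stimulated response element (GAAANNGAA, in 8.56% of all promoters) was found in 0 of the 10 entries and that of the gamma-activated sequence (TTCNNNGAA, in 8.3%) in 0, which concerns only the letters in these windows.

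Kif5b, the heavy chain of conventional kinesin, carries mitochondria, lysosomes and vesicles in most cell types. It rose in all 3 probe sets. Probe set 1418430_at read 9.96, 10.21 and 10.59 in MSC alone and 11.10 and 11.39 in co-culture, a rise of 0.99 ± 0.24 (SE), or 1.99-fold. For 1418427_at the values were 9.705, 9.94 and 10.02 against 10.70 and 10.71, a rise of 0.82 ± 0.18. In neither did the groups overlap, and the co-culture arrays of 1418427_at were nearly equal. The third, 1418431_at, stood at 7.70, 7.77 and 8.34 against 8.83 and 9.54 and rose by 1.25 ± 0.31. The largest and smallest of the 3 differences lay 0.43 apart.

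Kif3a is a subunit of the heterotrimeric kinesin-2 motor, which carries cargo along cilia and in the cytoplasm. Its probe set 1436560_at read 7.76, 7.46 and 7.59 in MSC alone and 6.505 and 5.86 in co-culture and fell by 1.42 ± 0.25 (SE), or 2.67-fold. The second, 1455652_at, read 6.64, 6.51 and 6.51 against 5.795 and 5.05 and fell by 1.13 ± 0.25. In both, the MSC arrays lay close together (SD 0.15 and 0.078, n = 3) and the co-culture arrays further apart (SD 0.46 and 0.52, n = 2), with replicate 2 the lower. Kifap3, the accessory subunit that joins the kinesin-2 motor to cargo, was also lower: it read 8.29, 8.23 and 8.455 against 7.64 and 7.58, and it fell by 0.71 ± 0.17.

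Kif1b carries mitochondria or synaptic vesicle precursors, depending on which of its alternative tails the transcript encodes. Its probe sets went opposite ways. Probe set 1455182_at read 8.245, 7.82 and 8.64 in MSC alone and 7.02 and 6.49 in co-culture, and it fell by 1.48 ± 0.30 (SE; adjusted p 0.00608 in limma). Probe set 1451762_a_at read 5.555, 6.08 and 6.07 against 6.94 and 7.81, a rise of 1.48 ± 0.32 (adjusted p 0.00673). Each change was 2.78-fold. Which part of the Kif1b transcripts either probe set reads is given by no source used here.

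The log2 ratio of the rising to the falling Kif1b probe set, relative to its mean in MSC alone, was -0.36, 0.59 and -0.24 in MSC replicates 1 to 3. In co-culture replicates 1 and 2 it was 2.25 and 3.65. The ratio thus shifted by 2.95 between groups, against an SD of 0.52 (n = 3) and 0.99 (n = 2) within them. An exact permutation test of the difference in means over the arrays, two-sided by doubling the one-sided p, gave p = 0.2, the smallest that this doubled form can give for 3 arrays against 2. Because both probe sets had to separate the groups to be in the table, the test adds nothing to the table's selection.

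Of the 5 kinesin genes with more than 1 probe set, Kif1b alone had probe sets that differed in direction. The genes whose values over the 5 arrays lay closest to the brighter Kif1b probe set were Slc46a1, Psd3 and Nudt21. Their Euclidean distances, after subtraction of each probe set's own mean, were 0.14, 0.19 and 0.20 among 2189 genes compared. Slc46a1 fell by 1.46, Psd3 fell by 1.36 and Nudt21 fell by 1.42.

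Kif2a encodes a microtubule depolymerase that acts at spindle poles and also trims microtubules in cells that do not divide. Its only probe set in the table, 1432072_at, read 4.94, 5.01 and 4.75 in MSC alone and 5.68 and 6.53 in co-culture, a rise of 1.20 ± 0.28 (SE), or 2.30-fold. Kif2a thus moved against its relative Kif2c. Its level in MSC alone was low and there is no detection call, so the size of its rise is uncertain.

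**Figure D3:**
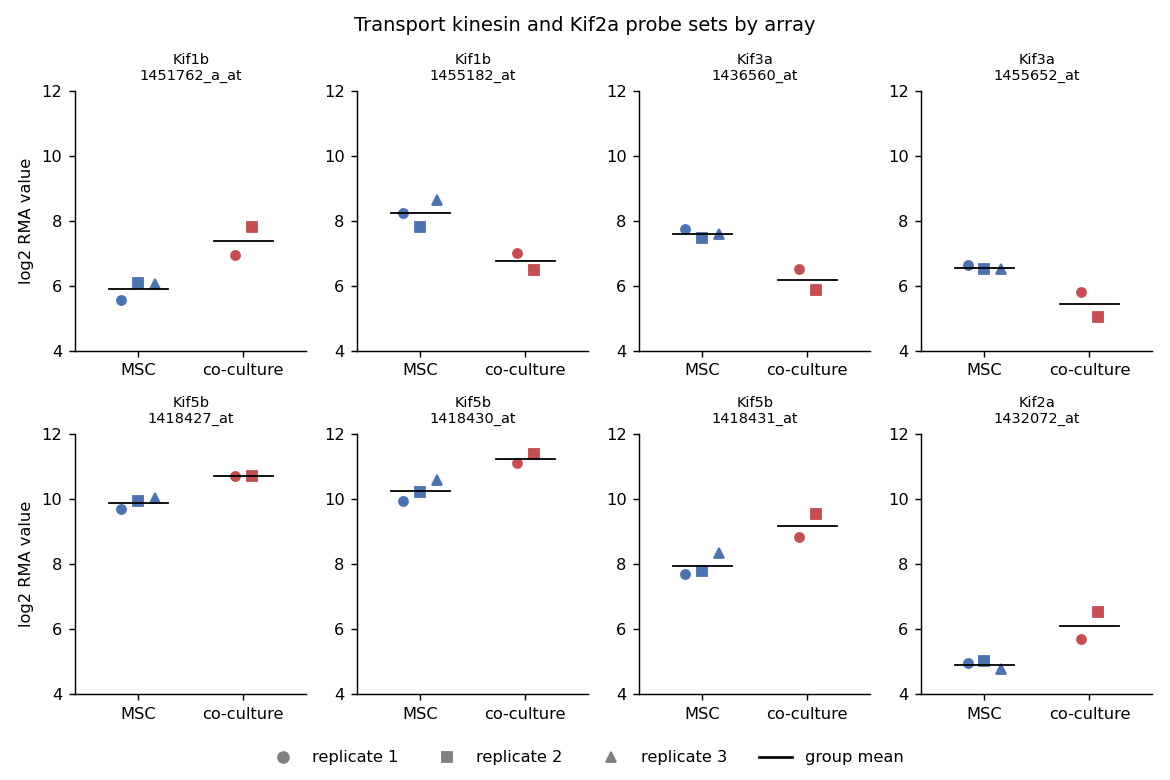
Log2 RMA value (y axis) of each transport kinesin probe set and of Kif2a in MSC alone (blue, 3 arrays) and co-culture (red, 2 arrays); symbols mark the replicate and lines the group mean. The Kif1b panels show the falling probe set 1455182_at beside the rising 1451762_a_at, and in all 8 panels co-culture replicate 2 lies further from MSC alone than replicate 1.

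The order of the co-culture arrays differed between the classes. In the 7 transport probe sets and Kif2a, co-culture replicate 2 lay further from MSC alone in 8 of 8, whichever the direction, as in 71.1% of all higher and 77.5% of all lower probe sets. In Kif5b 1418427_at the 2 arrays were nearly equal, at 10.70 and 10.71, and 3 of the 8 probe sets belong to Kif5b. In the mitotic probe sets replicate 1 lay further in 9 of 9. The 3 falling transport probe sets averaged -1.02 in co-culture replicate 1 and -1.66 in replicate 2 relative to MSC alone, and the 4 rising ones 0.90 and 1.37. With 2 co-culture arrays the difference between the classes was not tested.

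**Figure D4:**
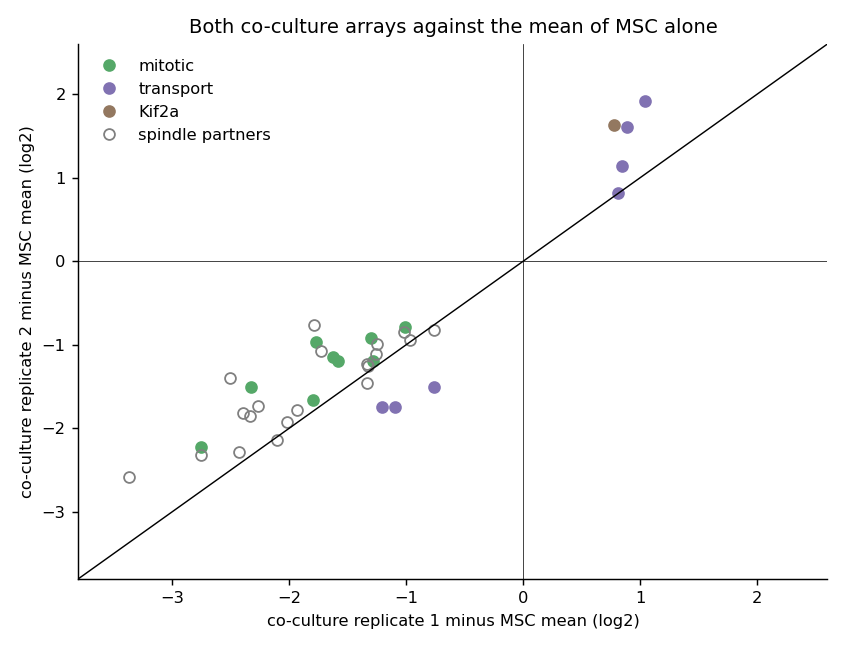
Co-culture replicate 1 (x axis) against co-culture replicate 2 (y axis), each as log2 difference from the mean of MSC alone, for the kinesin probe sets by class and for 20 probe sets of spindle partners (open circles); the diagonal marks equal values. The 9 mitotic points lie above the diagonal on the falling side, and the 8 transport and Kif2a points lie further from 0 in replicate 2.

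RNAs that encode partners of the mitotic motors were lower too, as far as they were in the table. Of 30 listed spindle partners 13 genes were there, with 20 probe sets. All 20 fell, with a median of -1.63, while 51.3% of the table fell, with a median of -1.23. Taking each gene's brightest probe set, Nuf2 and Spc25, subunits of the kinetochore's NDC80 complex, fell by 2.97 ± 0.36 (SE) and fell by 1.86 ± 0.29. Cenpf, a kinetochore protein, fell by 2.54 ± 0.24. Hmmr, a spindle protein, fell by 2.11 ± 0.27. Aurkb, the kinase that regulates Kif2c at kinetochores, and Cep55, which acts in abscission, fell by 2.00 ± 0.25 and fell by 1.95 ± 0.45. The array order was mostly that of the mitotic kinesins: co-culture replicate 1 was the lower array in 17 of 20 probe sets, and MSC replicate 3 the highest MSC array in 17 of 20.

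Of 24 listed proliferation markers 9 genes were in the table, in 13 probe sets. Of these 11 were lower and 2 higher, against 51.3% lower in the table. The 11 include Cdkn2c, which encodes an inhibitor of cyclin-dependent kinases and not a driver of division, and which fell by 0.69 ± 0.18. They also include Tyms, with low means of 3.85 in MSC alone and 3.32 in co-culture. Its call was lost in some alternatives, with an adjusted p in limma of up to 0.0648 and down to 0.00501. Rrm2, a subunit of ribonucleotide reductase, fell by 3.17 ± 0.40 (SE), the S and G2 phase cyclin gene Ccna2 fell by 2.75 ± 0.39, Mki67, a marker of cycling cells, fell by 2.39 ± 0.33, and Mcm6, of the replicative helicase, fell by 1.36 ± 0.21. The 2 that rose were Ccne1, the G1/S cyclin E1, by 1.34 ± 0.33, and Lin54, the MuvB subunit that binds CHR elements, by 1.14 ± 0.23. The array order in the 13 probe sets was near that of the table. Co-culture replicate 2 lay further from MSC alone in 9 of them and replicate 1 in 4. In the table replicate 2 lay further in 71.1% of higher and 77.5% of lower probe sets. The 4 belonged to Ccna2, Mki67 and Rrm2, and Rrm2 also had a probe set with the other order. MSC replicate 3 was the highest MSC array in 7 of 13, against 36.4% of the table and 48.3% of its lower probe sets. With an ordinary linear model in place of moderation, Ccne1 lost its call (adjusted p 0.0507 in limma, and down to 0.00298 in other alternatives).

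RNAs of the transport motors' partners were mixed. Of 25 listed kinesin light chains, subunits and cargo adaptors 6 genes were in the table, each with 1 probe set. Of these 2 rose and 4 fell, against 51.3% lower in the table. Plekhm1, a lysosomal adaptor, read 4.21, 5.49 and 3.86 in MSC alone and 6.79 and 7.98 in co-culture. It rose by 2.86 ± 0.57 (SE). Leaving out co-culture replicate 1 it rose by 3.45, and leaving out replicate 2 it rose by 2.27. Plekhm1 values in MSC alone were low and had no detection call, so the size of this rise is uncertain. Whether the Plekhm1 product links lysosomes to a kinesin was not tested. Ktn1, kinectin, a kinesin-binding protein of the endoplasmic reticulum, rose by 0.77 ± 0.20. Besides Kifap3, the scaffold genes Mapk8ip1 and Spag9, of the JIP family that links kinesin-1 to cargo, fell by 0.97 ± 0.26 and fell by 0.75 ± 0.18, and Kidins220 fell by 0.92 ± 0.19. The call of Mapk8ip1 was lost without co-culture replicate 2, where it fell by 0.86 (adjusted p 0.0524 in limma, and down to 0.00318 in other alternatives). Of 6 listed kinesins without a Kif number 0 were in the table.

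Dynein moves cargo the opposite way to most kinesins. Of 29 listed dynein, dynactin and dynein adaptor genes 9 were in the table, in 14 probe sets. Of these 11 were lower and 3 higher, against 51.3% lower in the table. Dync2li1, of the ciliary motor, fell by 1.73 ± 0.28 (SE), Hook3, a dynein adaptor, fell by 1.39 ± 0.34, and the light chain Dynll1 fell by 1.10 ± 0.27, while Hook2 rose by 1.12 ± 0.26. Dync1li2, a light intermediate chain, fell by 1.59 ± 0.38; leaving out co-culture replicate 1 it fell by 2.18, and leaving out replicate 2 it fell by 1.00. Pafah1b1, encoding the dynein regulator LIS1, had a brightest probe set that rose by 0.925 ± 0.17 and others that fell by 1.31 ± 0.22 and fell by 1.12 ± 0.24, so that here too 1 gene's probe sets disagreed.

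Of 38 listed tubulins and microtubule-associated proteins 5 genes were in the table, in 6 probe sets. All 6 were lower, against 51.3% of the table. Mapre2, encoding the plus-end protein EB2, fell by 2.34 ± 0.42 (SE); leaving out co-culture replicate 1 it fell by 3.03, and leaving out replicate 2 it fell by 1.65. Map9 fell by 1.40 ± 0.21, Tubd1, delta-tubulin, fell by 1.09 ± 0.27, Map1a fell by 1.01 ± 0.24, and Mapre1, encoding EB1, fell by 0.95 ± 0.24.

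**Figure D5:**
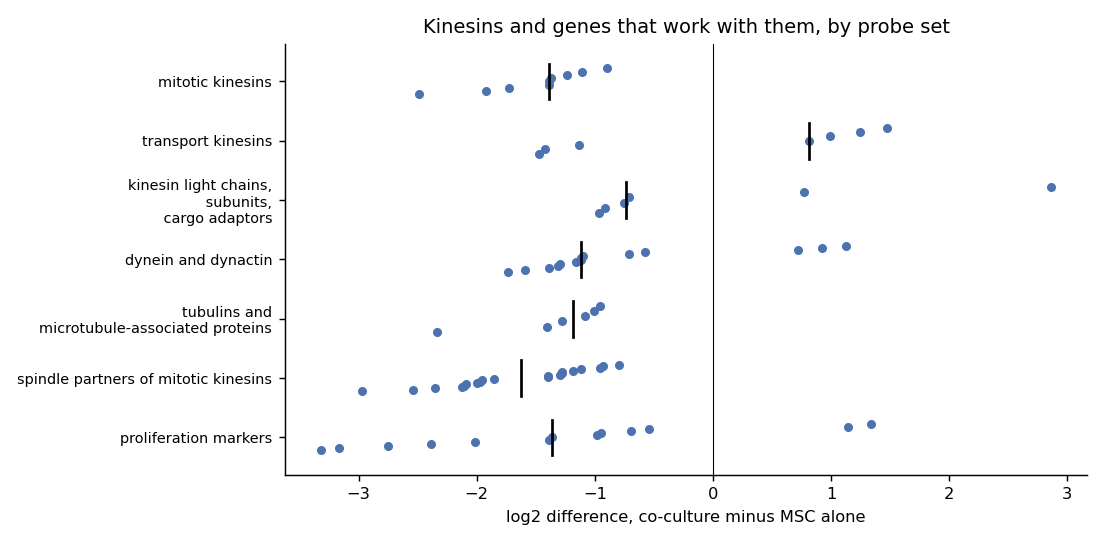
Log2 difference, co-culture minus MSC alone (x axis), of each probe set of the kinesin classes and partner lists (y axis); points are probe sets, spread vertically in order of their value, and bars are medians. Mitotic kinesins and spindle partners, with medians of -1.38 and -1.63, lie wholly left of 0. So do tubulins and microtubule-associated proteins, with a median of -1.18. Transport kinesins and their adaptors, dynein and dynactin, and proliferation markers lie on both sides.

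The depth of signal limits the mitotic values. Their MSC arrays read 5.89 to 7.89 and their co-culture arrays 3.69 to 5.79, and 7 of 9 had a mean over the 5 arrays below 6.24, the 25th percentile of the table. RMA compresses low values, and without detection calls no kinesin could be called absent. Had 15 times as many probe sets been tested, a multiple used because the table holds only part of an array, 12.3% of the table and 0 of the 17 kinesin probe sets would have kept an adjusted p below 0.05 in limma. The kinesins' adjusted p values were then 0.0614 to 0.13, against 0.00409 to 0.00866 when adjusted over the table.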

How the data were processed

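The deposited table holds log2 probe set values that the authors made with RMA (background correction, quantile normalization and summary over probes), per the submitters' processing notes (version not stated); the platform's probe table names the genes. Of the 3373 probe sets 3013 had 1 gene symbol, 69 had several and 291 had none. Entrez identifiers of all 10 kinesin genes were found in RefSeq, and 0 symbols changed. Groups came from sample titles.

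Differences are co-culture minus MSC alone from limma 3.58.1 under R 4.3.3 (lmFit and eBayes, all 5 arrays, no covariates, no filter, two-sided, Benjamini-Hochberg over the whole table, threshold 0.05), with moderated SE; the number of arrays limits the precision. The script was tested on simulated data. P-values measure only the spread between these arrays. Every kinesin probe set is reported. Of each partner list up to 6 genes with the largest absolute difference are named, each by its brightest probe set. The genes named as closest to Kif1b are the 3 with the smallest distance. The members, classes and lists were chosen with earlier results of these data known, and the promoter motifs after the values were seen. Stromal and macrophage markers, Kifap3, Cdkn2c, Tyms and the dimmer Pafah1b1 probe sets are named outside the rule. Probe sets ending in _a_at read several transcripts of a gene, and those in _s_at or _x_at may bind other transcripts, which makes the values of Aurkb and Rrm2 given here uncertain. Alternatives covered the spread, scaling, dim probe sets, the replicate block, each array, the number of tests, the probe sets per gene and the class of Kif2a.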

Additional observations from a re-analysis of the deposited data

How the results depend on the processing

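In the alternatives run no kinesin probe set changed sign. As no groups overlapped in the table, leaving out 1 array could not change a sign. Alternatives that changed only the spread, the number of tests or the probe sets entered left each difference as it was. Leaving out 1 array moved no kinesin's fold by over 1.5 times. Median centring raised every difference by 0.16, turned the table's split at 2-fold from 926 higher and 1189 lower to 1167 and 961, and left 7 mitotic probe sets at least 2-fold lower. Quantile normalization left 15 of 17 kinesins called, beside 3193 of all 3373 probe sets. It left 6 of 9 mitotic probe sets at least 2-fold lower, beside 1047 of all 3373, and turned the mitotic median from -1.38 to -1.05. As if 15 times as many had been tested, 415 of 3373 probe sets, 12 of 59 of the partner lists and 0 of the 17 kinesins (0 of 9 mitotic, 0 of 7 transport) passed in limma; at an unadjusted p under 0.05 all 17 did. Other counts fell because fewer probe sets entered, and each that entered passed. Without the dimmest 25%, 8 of 8 kinesins and 2 of 2 mitotic probe sets passed, as did 2530 of 2530 in the table, with a mitotic median of -1.82. With the brightest probe set per gene 10 of 10 kinesins and 3 of 3 transport probe sets passed, as did 2550 of 2550 in the table, and the transport median turned from 0.82 to -1.42. Without _s_at, _x_at and _a_at probe sets 35 of 35 partners passed, as did 2451 of 2451 in the table, and the transport median turned to -0.16, since it mixes both directions. With the replicate block 17 of 17 kinesins and 3365 probe sets passed. The labels share only numbers, and no pairing was assumed. With 2 pairs, the deviations of same-numbered arrays correlated at 0.22 and 0.32. The deviations of 2 co-culture arrays from their mean mirror each other, so these values cannot decide whether arrays were paired. Kif2a counted as mitotic gave a median of -1.38. Leaving out 1 array at a time gave 17 of 17 kinesins each time and between 3116 and 3371 probe sets.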

Other observations

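Pafah1b1, whose product LIS1 regulates dynein, was the other motor-related gene described above whose probe sets disagreed in direction. Probe set 1417086_at read 8.665, 8.19 and 8.635 in MSC alone and 7.27 and 7.10 in co-culture. Probe set 1448578_at read 9.36, 8.91 and 9.30 against 7.84 and 8.30. Both were lower in co-culture, with groups that did not overlap. Probe set 1460199_a_at read 10.38, 10.42 and 10.37 against 11.19 and 11.44 and was higher. In Kif1b and in Pafah1b1 the rising probe set was the one whose suffix marks several transcripts of the gene, a description of 2 genes that was not tested.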
